A study of Mus musculus with 4 samples.

Results

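Messenger RNA was measured in CD4+CD8+ double-positive (DP) thymocytes for 10 genes of the ATF4 stress response and the serine pathway: Atf4, Atf5, Cebpg, Ddit3, Trib3, Phgdh, Psat1, Shmt2, Mthfd2 and Slc7a11. They were taken by gene symbol from the authors' deposited comparison table, which lists 9 of them among 11536 genes. Trib3 came from the count table of 43430 genes. Aminoacyl-tRNA synthetase genes, many of which are also ATF4 targets, are not among the 10 genes. The cells came from the thymus of C57BL/6 mice and were sorted to a stated purity above 98%. The 2 knockout (KO) mice have the genotype Uqcrfs1fl/fl; CD4-Cre+, in which a Cre recombinase under Cd4 control acts on floxed alleles of the gene for the Rieske protein of respiratory complex III. Cre under Cd4 control becomes active at about the DP stage, so these cells are sampled soon after deletion can begin. The 2 controls are labelled WT for genotype, while the series text calls them heterozygous littermates. Neither their Cre status nor the age of the mice is stated in the labels.

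ATF4 is a basic leucine zipper transcription factor that cells make when the initiation factor eIF2 is phosphorylated. The kinases that do this respond to amino acid shortage, unfolded protein in the endoplasmic reticulum (ER), viral RNA, or haem shortage and mitochondrial stress. Control is mostly at translation: short upstream reading frames in the Atf4 message hold its translation low until eIF2 is phosphorylated. The level of Atf4 mRNA therefore does not report the level of the protein, and the mRNA of its target genes is the usual readout in RNA-seq. ATF4 binds DNA with partners of the C/EBP family, and its targets include genes for serine synthesis, mitochondrial folate metabolism and amino acid import, which are raised in many tissues with a defective respiratory chain.

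Reads assigned to genes numbered 30408863 to 34080516 per library. Levels are in CPM, the gene's count scaled to a common library size that was adjusted by the trimmed mean of M values. Uqcrfs1, the targeted gene, had 61.4 and 57.2 CPM in the WT libraries against 15.6 and 18.6 CPM in the KO libraries, and its log2 change was -1.80 (SE 0.09, adjusted p = 1.78e-04 in edgeR's quasi-likelihood test with Benjamini-Hochberg adjustment). With Gm2420 (3.14 and 6.82 CPM in WT, 0.0293 and 0 CPM in KO) and Gm47283 (log2 change 0.86) it made up the 3 genes called among 13281 tested (0.0226%, of which 0.00753% higher and 0.0151% lower in KO). Summed DP markers, among them Cd4, Cd8a and Rag1, lay between 16510 and 17820 CPM, and none of the 9 was at 0. Of these 9, 6 were higher and 3 lower in KO, and none was called. Lower in KO at an unadjusted p under 0.05 in edgeR's quasi-likelihood test were 2, Cd8a (log2 change -0.10) and Cd3e (-0.11). The summed level of 10 double-negative (DN) thymocyte markers was 104 and 107 CPM in WT and 133 and 176 CPM in KO, with Gata2 at 0 throughout. All 8 DN markers tested were higher in KO, none was called, and 3 had an unadjusted p under 0.05 in edgeR's quasi-likelihood test. In such bulk libraries, more cells of a type and more RNA per cell cannot be told apart. The 11 mature T cell markers summed to 1369 to 1389 CPM in WT and 1299 to 1320 CPM in KO. The sums were 74.8 to 81.7 CPM for 13 myeloid, 29.4 to 34 CPM for 7 B cell, 148 to 160 CPM for 9 stromal (Col1a2 and Krt8 at 0) and 0 to 0.221 CPM for 7 erythroid markers (Hba-a1, Hba-a2 and Slc4a1 at 0). Cst3 makes up most of the myeloid sum, and without it the other 12 markers summed to 20.1 and 18.9 CPM in WT and 18.3 and 30.9 CPM in KO, a sum added after the values were seen. KO replicate 2 was the highest library for 9 of the 13 myeloid markers. Among these, Lyz2 had 170 counts there against 7 to 17 elsewhere, Csf1r 42 against 4 to 5 and Itgax 32 against 2 to 4. Ctss had 103 against 27 to 47, C1qa 14 against 0 to 2 and Adgre1 12 against 2. The others of the 9 were C1qb (16 against 1 to 6), Tyrobp (21 against 0 to 16) and Itgam (348 against 311 to 321). Cd68, Fcer1g, Cst3 and Aif1 were highest in a WT library. Cst3 was lowest in KO replicate 2, with 50.8 CPM against 56.5 to 60.6 CPM elsewhere. Reads outside annotated exons made up 17.2% and 18.6% of uniquely aligned reads in WT and 20.6% and 19.9% in KO. The part of these cells and reads in the values below was not tested.

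None of the 10 genes passed the threshold in the comparison of KO with WT, which asks whether loss of Uqcrfs1 in DP cells is accompanied by the transcripts of this stress response. Adjusted p values ran from 0.581 (Cebpg) to 0.999 (Ddit3) in edgeR's quasi-likelihood test, and DESeq2 and edgeR's likelihood ratio test also called 0 of the 10. At an unadjusted p under 0.05 there was 1 gene, Cebpg, against 8.4% of all genes tested. The median log2 change of the 10 genes was 0.04, beside -9.85e-05 over all genes, with 6 genes higher and 4 lower. The 95% interval of the change lay inside 1.5-fold in both directions for 9 of the 10 genes. Trib3, with 16 to 35 counts per library, was the exception. The intervals are per gene and not adjusted for the number of genes. In the authors' deposited table the 9 listed genes have adjusted p values from 0.376 (Slc7a11) to 0.9995 (Ddit3), and none is marked as higher or lower.

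**Figure D1:**
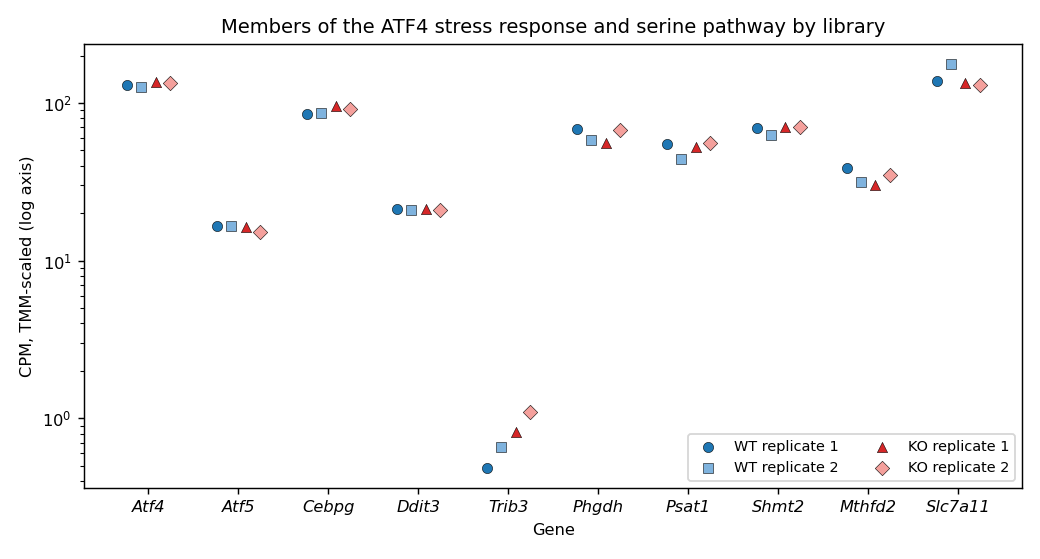
CPM of the 10 genes (log axis) in each of the 4 libraries, with circles and squares for WT replicates 1 and 2 and triangles and diamonds for KO replicates 1 and 2. Trib3 lies at or near 1 CPM and below, 9 genes lie between 15.3 and 176 CPM, and within a gene the WT and KO points lie close together.

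Per kilobase of exon, Atf4 was the most abundant of the 10 and Trib3 the least. The mean over the 4 libraries was 56.0 RPKM (CPM per kilobase of annotated exon) for Atf4, above 93.8% of the genes tested. It was followed by Phgdh at 25.1, Shmt2 at 22.0, Cebpg at 16.01, Ddit3 at 12.4, Psat1 at 12.2, Slc7a11 at 10.4, Mthfd2 at 9.70, Atf5 at 8.14 and Trib3 at 0.361 RPKM. The library values of neighbours in this order overlapped for Phgdh and Shmt2, Ddit3 and Psat1, Psat1 and Slc7a11, and Slc7a11 and Mthfd2, and did not overlap for the other neighbours. The order depends on the exon length used: with the lengths in the deposited count table, Shmt2 (29.7 RPKM) stands above Phgdh (17.2 RPKM), Mthfd2 moves from rank 8 to rank 5 and Psat1 from rank 6 to rank 8. Atf4, Cebpg, Slc7a11, Atf5 and Trib3 keep ranks 1, 4, 7, 9 and 10 with both sets of lengths.

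The promoters show which of the 10 genes carry a recognition sequence of ATF4 close to the start site, in RefSeq sequences of 250 bases before to 50 after the start (GRCm38.p6), of which 12 belong to the 10 genes. The composite element of ATF4 and C/EBP factors was searched as TGATGNAAN on both strands, and is present in 3.95% of 32851 promoters. It is present in Slc7a11, as 2 matches facing each other, and in Trib3, as 1 match just after the RefSeq start. The GENCODE gene of Trib3 starts at 152344032 on the minus strand. The match, at 152344039 to 152344047, lies before that start. A variant with other fixed letters, TGNTGCAAT, was added after the sequences were read. It is present in Trib3 and Psat1 and in 0.673% of all promoters. The 2 patterns can overlap in other promoters. No promoter of the 10 genes held the cAMP response element TGACGTCA (1.79% of all promoters). These are matches of letters in a short window and say nothing of binding. The matches are in capitals below, with position counted from the start site and each sequence on the strand of its gene, which is the minus strand in all 4 cases. Psat1 has 2 RefSeq promoters, and the match lies in only 1 of them, whose start is inside the longer GENCODE gene.
Slc7a11, bases -80 to -21, chr3:50443634-50443693: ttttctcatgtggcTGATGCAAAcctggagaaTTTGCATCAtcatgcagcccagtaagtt
Trib3, bases -60 to -1, chr2:152344061-152344120: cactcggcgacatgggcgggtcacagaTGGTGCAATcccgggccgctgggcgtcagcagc
Trib3, bases 4 to 33, chr2:152344028-152344057: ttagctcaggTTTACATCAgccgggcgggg
Psat1, bases -160 to -100, chr19:15925159-15925219: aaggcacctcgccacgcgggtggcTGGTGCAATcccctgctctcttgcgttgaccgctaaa

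Among the transcription factors, Atf4 and Cebpg had the higher values in both KO libraries, by small amounts. Atf4 (chromosome 15 from 80255184 to 80257541) had 130.4 and 127 CPM in the WT libraries and 136 and 134 CPM in the KO libraries. Both KO values were above both WT values. Means were 129 ± 2.35 and 135 ± 1.13 CPM (SD, n = 2), and the log2 change was 0.07 (SE 0.05, 95% interval -0.04 to 0.18, adjusted p = 0.700 in edgeR's quasi-likelihood test). Expressed as a fold, the interval ran from 0.973 to 1.13.

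Cebpg (chromosome 7 from 35046422 to 35056573) encodes C/EBP gamma, a C/EBP protein without an activation domain that pairs with ATF4. The WT libraries gave 85.4 and 86.9 CPM, the KO libraries 95.8 and 91.9 CPM. The groups did not overlap, and the interval of its change narrowly left out 0. With means of 86.2 ± 1.10 and 93.9 ± 2.69 CPM (SD, n = 2), the log2 change was 0.12 (SE 0.05, 95% interval 0.004 to 0.24, adjusted p = 0.581 in edgeR's quasi-likelihood test). By unadjusted p (0.0441) it ranked 1007 of the 13281 genes. The unadjusted p was not under 0.05 in 7 of the 11 alternative settings or tools, among them DESeq2 (0.107), edgeR's likelihood ratio test (0.0615), the replicate block (0.0676) and the fit without KO replicate 1 (0.314).

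Ddit3, which encodes CHOP, a factor induced under lasting ER or amino acid stress, had the most even values of the 10 genes. It lies on chromosome 10 from 127290774 to 127296288, with 21.3 and 21.1 CPM in the WT libraries and 21.4 and 20.96 CPM in the KO libraries. The KO values lay on either side of the WT values. The log2 change was 0.001 (SE 0.08), with an interval of 0.883 to 1.13 in fold. Exons of Ddit3 share 68 bases with Mars on the opposite strand (2393 to 2855 counts per library). The strand setting of the counting is not stated in the labels, so how such reads were assigned is unknown.

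Atf5 (chromosome 7 from 44812256 to 44816658), a relative of ATF4 that is linked to the mitochondrial unfolded protein response, had 16.5 and 16.6 CPM in the WT libraries and 16.5 and 15.3 CPM in the KO libraries. The first KO library was just below both WT libraries, and the second was lower. The log2 change was -0.06 (SE 0.09, interval 0.830 to 1.11 in fold). Its exons share 82 bases with Il4i1 and Nup62 on the opposite strand.

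Trib3 had the largest change of the 10 genes and the fewest reads. It encodes a pseudokinase that is induced by ATF4 and CHOP and restrains both, and lies on chromosome 2 from 152337422 to 152344032. Its counts were 16 and 20 in WT and 28 and 35 in KO, or 0.487 and 0.659 CPM against 0.821 and 1.10 CPM. Both KO libraries lay above both WT libraries. The log2 change was 0.75 (SE 0.40, 95% interval -0.15 to 1.64, adjusted p = 0.637 in edgeR's quasi-likelihood test). Summed by group, there were 36 counts in WT and 63 in KO. Scaled to library size, their ratio was 1.68, with an exact binomial interval of 1.10 to 2.61 that covers counting error only. The highest value was in KO replicate 2. That library also had the highest values for 9 of the 13 myeloid markers and for the DN marker Il2ra (26.4 CPM against 8.50 to 12.9 CPM elsewhere). The log2 change of Trib3 was 0.52 without KO replicate 2 and 0.54 without WT replicate 1. It was 0.94 without KO replicate 1 and 0.97 without WT replicate 2. The part of other cells in the Trib3 values was not tested.

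**Figure D2:**
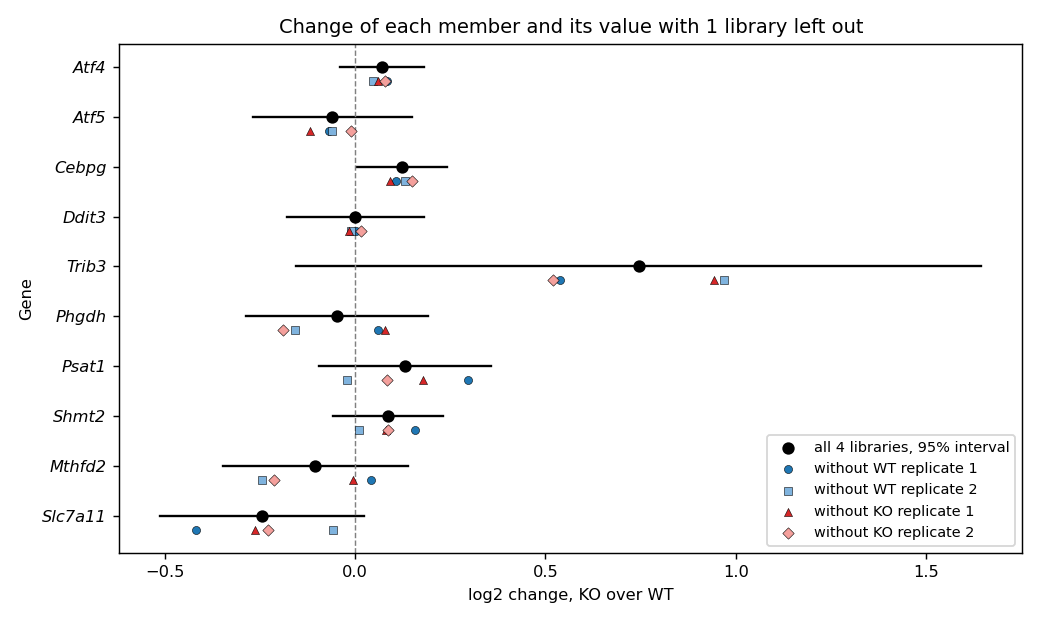
Log2 change of KO over WT for the 10 genes with its 95% interval (black) and, below each, the change with 1 library left out (coloured as the library that was left out). The interval of Cebpg alone leaves out 0, that of Trib3 runs from -0.15 to 1.64, and the points of Slc7a11, Psat1, Phgdh and Mthfd2 move with the library left out.

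The 4 serine pathway genes, like most genes tested, differed more between the 2 WT libraries than between the genotype means. For 6 of the 10 genes the gap between the WT libraries exceeded the change between groups on the log2 scale, and these 4 are among them, with Ddit3 and Slc7a11. This was so for 59.9% of all genes tested. Phgdh, the first enzyme of serine synthesis, had 68.2 and 58.6 CPM in the WT libraries and 55.7 and 67.1 CPM in the KO libraries. The groups overlapped, with means of 63.4 ± 6.78 and 61.4 ± 8.06 CPM (SD, n = 2), and the log2 change was -0.05 (SE 0.10, interval 0.819 to 1.14 in fold). It lies on chromosome 3 from 98313170 to 98339990, and 13 annotated copies elsewhere are at least 95% identical to its transcripts over 200 or more bases. The copies that were counted had 0 to 10 counts per library, and reads aligned to more than 1 place, 23.2% to 24.7% of aligned reads, were not assigned to any gene.

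Psat1, the next enzyme, which makes phosphoserine, had its lowest value in a WT library. Values were 54.7 and 43.9 CPM for WT and 52.3 and 55.9 CPM for KO (chromosome 19 from 15904678 to 15947337). WT replicate 2 stood apart from the other 3 libraries. The log2 change was 0.13 (SE 0.10, 95% interval -0.09 to 0.36), and -0.02 without WT replicate 2.

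Shmt2, which splits serine into glycine and a folate-bound carbon in mitochondria, had 69.7 and 63.0 CPM in the WT libraries and 70.5 and 70.4 CPM in the KO libraries (chromosome 10 from 127517123 to 127522444). The KO libraries were above both WT libraries, narrowly so for WT replicate 1. The log2 change was 0.09 (SE 0.06), and 0.01 without WT replicate 2.

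Mthfd2, the mitochondrial folate enzyme that follows Shmt2, had 38.4 and 31.6 CPM in the WT libraries and 30.3 and 35.0 CPM in the KO libraries (chromosome 6 from 83305691 to 83325908). Its groups overlapped, with a log2 change of -0.10 (SE 0.11, 95% interval -0.35 to 0.14) that was 0.04 without WT replicate 1. Phgdh and Mthfd2 had the same order of libraries, with WT replicate 1 and KO replicate 2 highest.

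Other folate genes and proliferation genes were also mostly higher in WT replicate 1 than in WT replicate 2. WT replicate 1 was above WT replicate 2 for all 4 serine pathway genes and for 16 of 21 further serine, glycine and folate enzymes, against 49.5% of all genes tested. Summed over the 4 genes the level was 231 and 197 CPM in WT and 209 and 228 CPM in KO. A list of 16 proliferation genes, among them Mki67, Top2a and Pcna, was added after these values were seen. It summed to 6143 and 5223 CPM in WT and to 5367 and 5568 CPM in KO. WT replicate 1 was the highest of the 4 libraries for 16 of these 16 genes, but for 2 of the 4 serine pathway genes. That share was not counted over all genes tested. The part of cell division in the serine pathway values was not tested.

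**Figure D3:**
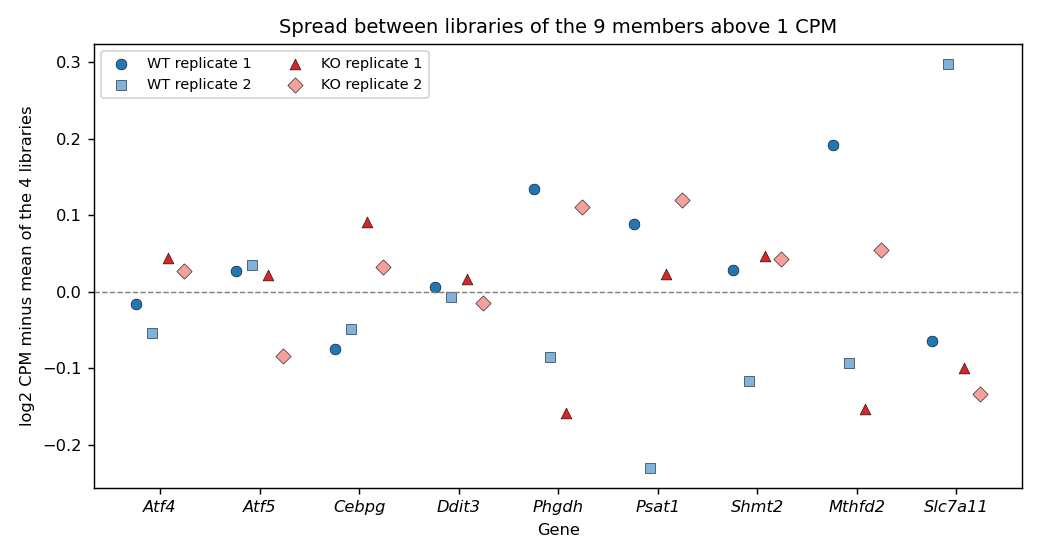
Log2 CPM of 9 genes in each library minus the mean of the 4 libraries for that gene, with symbols as in the plot of CPM by library (Trib3, below 1 CPM on average, is left out). For Phgdh and Mthfd2 WT replicate 1 and KO replicate 2 are the highest, and WT replicate 2 is the lowest for Psat1 and Shmt2 and far the highest for Slc7a11.

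Slc7a11, which encodes the cystine importer that feeds glutathione synthesis, had the lowest log2 change of the 10 genes, and this rested on 1 WT library. The WT libraries gave 137 and 176 CPM, the KO libraries 134 and 131 CPM. Both KO values were below both WT values, and WT replicate 1 lay closer to the KO libraries than to WT replicate 2. With means of 157 ± 27.6 and 132 ± 2.18 CPM (SD, n = 2), the log2 change was -0.24 (SE 0.11, 95% interval -0.51 to 0.02, adjusted p = 0.618 in edgeR's quasi-likelihood test). Without WT replicate 2 the change was -0.06 (adjusted p = 0.567). Without WT replicate 1 it was -0.42 and passed the threshold (adjusted p = 0.000652), in a fit that assumes the lone WT library to vary like the KO libraries. It also passed with no filter on low counts (adjusted p = 0.00723). The gene spans chromosome 3 from 49892526 to 50443614, and a stretch of 373 bases in its annotated transcripts is 95.4% to 96.2% identical to the tubulin genes Tuba1a, Tuba1b and Tuba1c, where reads may align to more than 1 place.

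The groups did not overlap for 6 of the 10 genes (60%), 4 of them higher in KO (Atf4, Cebpg, Trib3 and Shmt2) and 2 lower (Atf5 and Slc7a11). Over all genes tested the groups did not overlap for 40.5%, with 20.4% higher and 20.1% lower. With 2 libraries per group an exact two-sided permutation test of 1 gene cannot go below p = 0.333, so no such test was made per gene.

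The 6 lists of related genes below were also without a call in DESeq2 and in edgeR's likelihood ratio test. Upstream of ATF4, the eIF2 kinases and their regulators had a median log2 change of -0.02 over 17 genes, with 8 higher and 9 lower and 0 called in edgeR's quasi-likelihood test (0 also at an unadjusted p under 0.05). Eif2ak1, the haem-regulated kinase that relays mitochondrial stress, had 76.2 and 78.2 CPM in the WT libraries and 73.5 and 71.5 CPM in the KO libraries, and its log2 change was -0.09 (SE 0.05). For Eif2b4, a subunit of the exchange factor that phosphorylated eIF2 blocks, the change was -0.11 (SE 0.06). Ppp1r15b, the constitutive partner of the eIF2 phosphatase, stood at 224 to 229 CPM over the 4 libraries (0.01), and Gcn1l1, the partner of the amino acid-sensing kinase GCN2, at 166 to 173 CPM (-0.02).

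Partner and related factors were also near 0 in change, at a median of -0.05 over 12 tested genes with 0 called (0 at an unadjusted p under 0.05). Xbp1, the factor of the IRE1 arm of the ER stress response, was at -0.08 (SE 0.06), Nfe2l1 at -0.08 (SE 0.05) and Trib2, a relative of Trib3, at -0.07 (SE 0.07). Atf3, Cebpd and Nupr1, stress-induced factors of this network, had at most 3 counts in any library of either genotype.

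Beyond the 4 genes above, serine, glycine and folate enzymes had a median of -0.002 over 21 tested genes, with 0 called. At an unadjusted p under 0.05 there was 1, Tyms, the thymidylate synthase gene, with 124 and 109 CPM in WT and 97.5 and 100.2 CPM in KO (log2 change -0.23, SE 0.07, adjusted p = 0.497 in edgeR's quasi-likelihood test). Tyms was called with no filter on low counts and also without WT replicate 2. Slc25a32, the mitochondrial folate carrier gene, was at 0.19 (SE 0.09) and Mat2a, which makes S-adenosylmethionine, at 0.08 (SE 0.05).

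Amino acid transporters had a median of 0.01 over 12 tested genes, with 0 called and 0 at an unadjusted p under 0.05. Slc38a2, a neutral amino acid transporter that amino acid shortage induces, was the most abundant, with 566 and 608 CPM in WT and 615 and 587 CPM in KO (log2 change 0.03, SE 0.05). Slc1a5, a glutamine transporter, was at -0.05 (SE 0.05) and Slc1a4, which carries serine and alanine, at 0.39 (SE 0.38) on 1.07 CPM or less.

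Other target genes of ATF4 had a median of -0.02 over 16 tested genes of 22 listed, with 0 called. The autophagy genes Atg12, Map1lc3b and Sqstm1 were at -0.10, 0.04 and -0.02. Chac1, Stc2, Fgf21, Gdf15 and Adm2, which strong ATF4 activity induces from a low level, had at most 3 counts in any library, and 2 of them had none. A level of 3 counts corresponds to 0.088 to 0.0988 CPM here, so no fold is given for them.

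The ER chaperone genes driven by ATF6 and XBP1, the other arms of the ER stress response, had the lowest median absolute log2 change of the 6 lists. It was 0.02 over 16 genes against 0.08 over all 13281 genes. These were not matched for expression level: all 16 passed a filter of 1 CPM in 2 libraries, which 11536 genes passed over the whole table. None of the 16 was called, and 0 had an unadjusted p under 0.05. Edem1, which sends misfolded glycoproteins to degradation, had 1826 and 1821 CPM in the WT libraries and 1947 and 1865 CPM in the KO libraries (log2 change 0.06, SE 0.05). Manf was at -0.09 (SE 0.05) and Dnajc3 at 0.003 (SE 0.05).

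**Figure D4:**
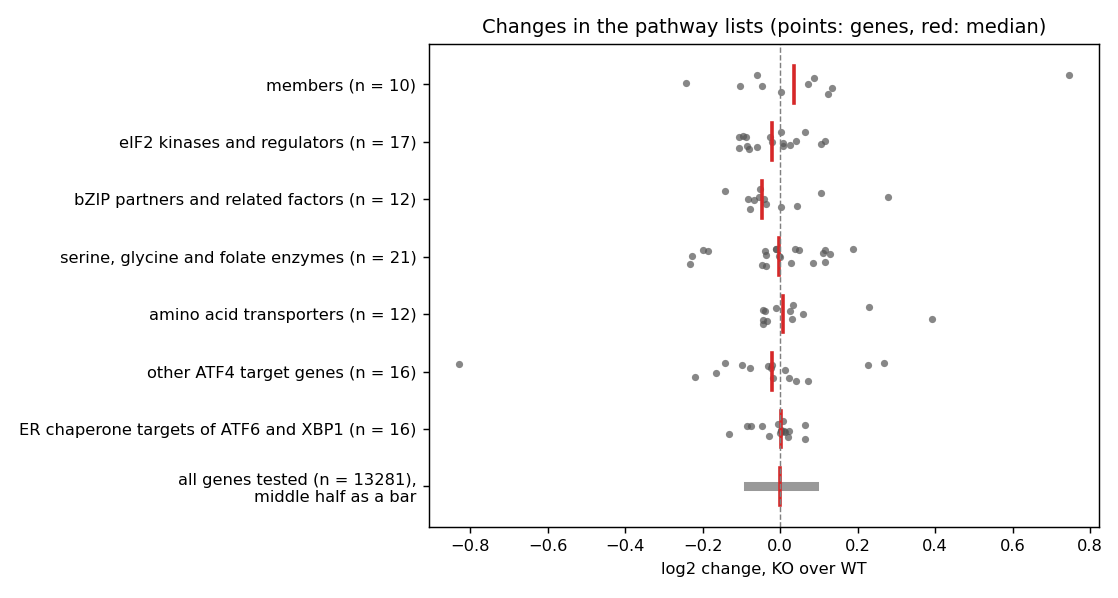
Log2 change of KO over WT for each tested gene (points) of the 10 genes (top row) and of 6 lists of related genes, with the median of each in red; the bar in the last row spans the quartiles of all 13281 genes tested, from -0.08 to 0.09. Every list median lies within 0.05 of 0, and the points beyond 0.5 are Trib3 and Vldlr, both below 1 CPM on average.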

How the data were processed

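Libraries of 2 KO and 2 WT mice were grouped by their titles. The submitters' processing notes name Trimmomatic 0.33, STAR 2.5.2, the build mm10, HTSeq and edgeR. The deposited counts are raw counts per Ensembl gene, and the authors' edgeR table gives CPM, log2 fold changes, p-values, a likelihood ratio score and marks. HTSeq summary lines were left out of library sizes. The 10 genes and all lists were chosen with earlier results of these data known.

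Counts were tested with edgeR 4.0.16 (R 4.3.3): filterByExpr (minimum count 10, total 15), TMM, quasi-likelihood F test on genotype, adjusted p under 0.05 over 13281 genes. Positive log2 changes are higher in KO. SE is the absolute change over the square root of F, and 95% intervals use its t quantile. The test was also run on simulated counts. It recovered 27 of 50 genes changed 1.25-fold and 46 of 50 changed 1.5-fold, with 11 false calls among 180. The simulated fit had a median of 25.9 degrees of freedom against 8.78 in the real fit. It therefore does not give the power or error rate of the real fit. RPKM used exon lengths and positions from GENCODE M21 (GRCm38, the build of mm10). Near-identical copies were sought with BLAST 2.17.0 (95% identity, 200 bases). Named genes were the 10, Uqcrfs1, all called genes and, per list, the 2 with the smallest p and the 2 most abundant; some results for genes of these lists are not reported here. Atf3, Cebpd, Nupr1, Chac1, Stc2, Fgf21, Gdf15, Adm2, Vldlr, Asns, Ddit4, Sesn2, and the marker, proliferation, overlapping and near-identical genes were named after their values were seen. Depth was 30408863 to 34080516 counts, and the intervals given beside summed counts cover counting error only. Libraries differed beyond sampling noise (chi-square per degree of freedom 4.82 to 12.1). Pairs with WT replicate 1 had the highest values, 9 against WT replicate 2 and 10.1 and 12.1 against KO replicates 1 and 2. WT replicate 2 gave 5.46 and 7.74 against KO replicates 1 and 2, and the KO libraries gave 4.82 against each other. Same-numbered libraries did not deviate together (correlation 0.0726 over 11465 genes), and the numbers are not stated to pair mice.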

Additional observations from a re-analysis of the deposited data

How the results depend on the processing

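Size factors of DESeq2 and library totals in place of TMM, and a filter of 1 CPM in 2 libraries (which leaves out Trib3), changed no call or direction of the 10 genes. The number of genes called over the whole table was 3, against 191 with no filter on low counts, 24 in DESeq2 1.42.0, 101 in edgeR's likelihood ratio test and 27 with the replicate number as a block. The block changed no call among the 10 genes and left their median at 0.0359. With no filter Slc7a11 was the 1 gene of the 10 to be called, and the log2 change of Ddit3 turned to -0.003226. Of genes named from the 6 related lists, Tyms and Ddit4 were called with no filter, and Tyms without WT replicate 2.

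Leaving out 1 library raised the number of genes called to between 41 (without WT replicate 1) and 365 (without WT replicate 2), with 53 and 44 without KO replicates 1 and 2. Of the 10 genes, 0 to 1 were called, the 1 being Slc7a11 without WT replicate 1. Their median ran from -0.0151 to 0.0735, and that of the eIF2 kinases and regulators from -0.0541 to -0.0112, of related factors from -0.0557 to -0.0132, of folate enzymes from -0.0802 to 0.0516, of transporters from -0.0537 to -0.00221, of other targets from -0.0723 to -0.00982 and of ER chaperones from -0.0273 to 0.00387. The direction turned for Ddit3 (-0.0166 to 0.0153), Psat1 (-0.0208 to 0.297), Phgdh (-0.189 to 0.0788) and Mthfd2 (-0.243 to 0.0426), while the transporter median, 0.00813 with all libraries, was below 0 each time. The cause was not tested. The overlap of groups was not recomputed without a library.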

Other observations

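Asns, the asparagine synthetase gene and a standard readout of ATF4 activity, was close to the limit of detection in DP thymocytes of both genotypes, and is named here after its values were seen. It had 3 and 2 counts in WT and 5 and 10 counts in KO, too few for the test. The summed counts were 15 in KO and 5 in WT. Scaled to library size, their ratio was 2.88, with an exact binomial interval of 0.995 to 10.1 that covers counting error only. As for Trib3, the highest count was in KO replicate 2, the library with the highest values for 9 of the 13 myeloid markers. The count in KO replicate 1 was also above both WT counts. The part of other cells in these counts was not tested.

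Ddit4, a stress-induced inhibitor of mTORC1 signalling that ATF4 can drive, had 1 library apart, and is also named after its values were seen. Values were 111 and 101 CPM for WT, 109 CPM in KO replicate 1 and 139 CPM in KO replicate 2 (log2 change 0.23, SE 0.12, adjusted p = 0.646 in edgeR's quasi-likelihood test). It was called with no filter on low counts. Sesn2, another ATF4 target that restrains mTORC1, had 7.92 and 8.20 CPM in the WT libraries and 7.07 and 7.53 CPM in the KO libraries (log2 change -0.14, SE 0.13, adjusted p = 0.777 in edgeR's quasi-likelihood test).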
